A study of Arabidopsis thaliana with 6 samples.

Results

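The class III peroxidases are a plant family of secreted haem enzymes, and 60 of their genes were followed here among the 28259 loci measured in Arabidopsis thaliana seedlings. The genes were chosen by locus code, with earlier results of these data known, and all 60 codes were present in each library. They are called by the usual PRX numbers of the family, each tied to a locus code, and the annotation of the TAIR10.1 assembly gives that same number for 11 of them. The seedlings were of the Columbia ecotype (Col-0), 10 days old, and carried no transgene or mutation in the labels. They had been raised in 10 h of light and 14 h of dark and kept overnight in water under light. Control seedlings then received the solvent dimethyl sulfoxide (DMSO) for 8 h, and treated seedlings received 3-hydroxydecanoic acid (3-OH-C10:0), a bacterial medium-chain fatty acid that Arabidopsis senses as a sign of infection. The dose is 5 microM in the sample characteristics but 5 mM in the protocol text, so none is assumed. Each group held 3 RNA-seq libraries of whole seedlings.

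Class III peroxidases sit in the cell wall and the space around cells. With hydrogen peroxide they oxidise phenolic compounds, which couples monolignols into lignin and links wall proteins, and some of them also produce reactive oxygen species themselves. In immunity they act beside the NADPH oxidases of the plasma membrane, whose superoxide is converted to the hydrogen peroxide that peroxidases use. In roots, members of the family stiffen the walls of growing hairs and lignify the Casparian strip, the barrier in the walls of the endodermis.

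The libraries held between 18064723 and 27131500 estimated counts, so 3 counts in a library stood for 0.111 to 0.166 CPM, counts scaled to the size of the library. Levels are given as FPKM, the authors' fragment values scaled for transcript length and library size, because FPKM allows levels of different genes to be compared. Each log2 fold change compares treated with DMSO seedlings and is given ± its standard error, from edgeR's quasi-likelihood test on the estimated counts, and adjusted p-values are from that test with Benjamini-Hochberg adjustment over all 19768 tested loci. A gene is said to have risen or fallen where its adjusted p was under 0.05. The labels do not say whether the replicates were grown separately, so the p-values reflect the variation among these libraries alone, which may be technical. Floors and intervals cover counting error only.

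After 8 h some peroxidase genes had risen by large factors, while more had fallen by smaller ones. Of the 60 genes 55 had enough counts to be tested. Of these, 16 rose, 22 fell and 17 did not pass the test. So 38 members changed in a transcriptome in which 71.4% of all tested loci did. The shares that rose and fell, 29.1% and 40.0%, stand beside 35.6% and 35.8% of all tested loci. The treated libraries lay above all DMSO libraries in 16 members (29.1%, against 37.7% of all loci) and below them in 24 (43.6%, against 38.2%). The size of the increases stood further from the background than their number: 11 of the 55 members rose at least 8-fold, against 3.96% of all tested loci. The members were chosen with earlier results of these data known, so this contrast is a description and was not tested. The 11 include PRX5, with 4, 2 and 7 counts in the DMSO libraries, and PRX58, with 1, 1 and 0. The sizes of their fold changes rest on these few counts. Each of the 16 that rose did so at least 2-fold (29.1%, against 15.7% of all loci), and the smallest increase among them was 1.22 on the log2 scale. Decreases were smaller. Only 8 members (14.5%, against 14.7% of all loci) fell at least 2-fold, and the median log2 fold change of the 22 that fell was -0.77. The 8 include PRX2, whose reads cannot be told apart from those of PRX1. Summed, that pair fell by 0.63 on the log2 scale, less than 2-fold. PRX24 and PRX25 are also among the 8, and their calls were lost on leaving out some single libraries. Over all 55 tested members the median was -0.08, close to the -0.04 of all tested loci.

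**Figure D1:**
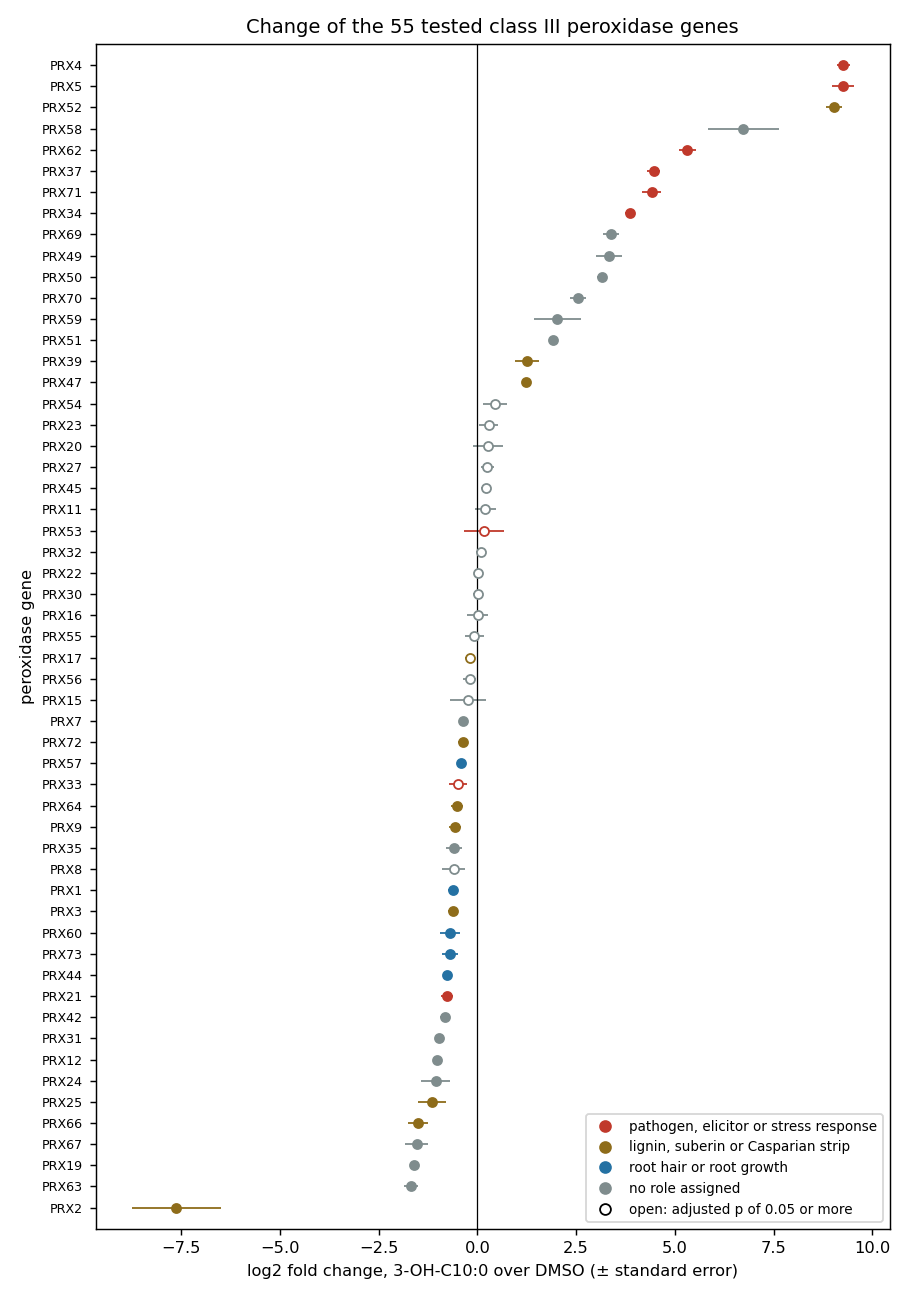
Log2 fold change of each of the 55 tested peroxidase genes, treated over DMSO, with bars of 1 standard error (3 libraries per group); colours give the role known from earlier work and open symbols did not pass. The increases reach 9.26 (PRX4), whereas all decreases but that of PRX2 are no lower than -1.68; the PRX2 value of -7.63 comes from reads that cannot be told apart from those of PRX1.

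The 5 genes that could not be tested had few reads or none. PRX14 (AT2G18140) and PRX41 (AT4G17690) had no count in any library, PRX6 (AT1G24110) and PRX68 (AT5G58400) had 1 count each over all libraries, and PRX46 (AT4G31760) had 27. For PRX14 and PRX41 a count of 0 allows up to 0.111 to 0.166 CPM per library.

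The increase was large enough to change what the family as a whole amounted to. The FPKM of the 60 genes gave sums of 2528, 2781 and 2580 for the DMSO libraries. The treated libraries gave 11554, 11316 and 10634. In mean terms this was 0.355% ± 0.0179 of all FPKM in DMSO and 1.58% ± 0.0545 in treated seedlings (SD, n = 3). The groups lay far apart, with a ratio of means of 4.25, or 2.99 without PRX71. The 16 members that rose accounted for 614 ± 146 FPKM in DMSO and 9778 ± 445 in treated seedlings. The 22 that fell went the other way, from 1398 ± 84.8 to 760 ± 12.3 FPKM, and the other 22 stood at 618 ± 34.9 and 629 ± 56.2. The last 3 sums follow from how the members were sorted by the test and are given as levels only.

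**Figure D2:**
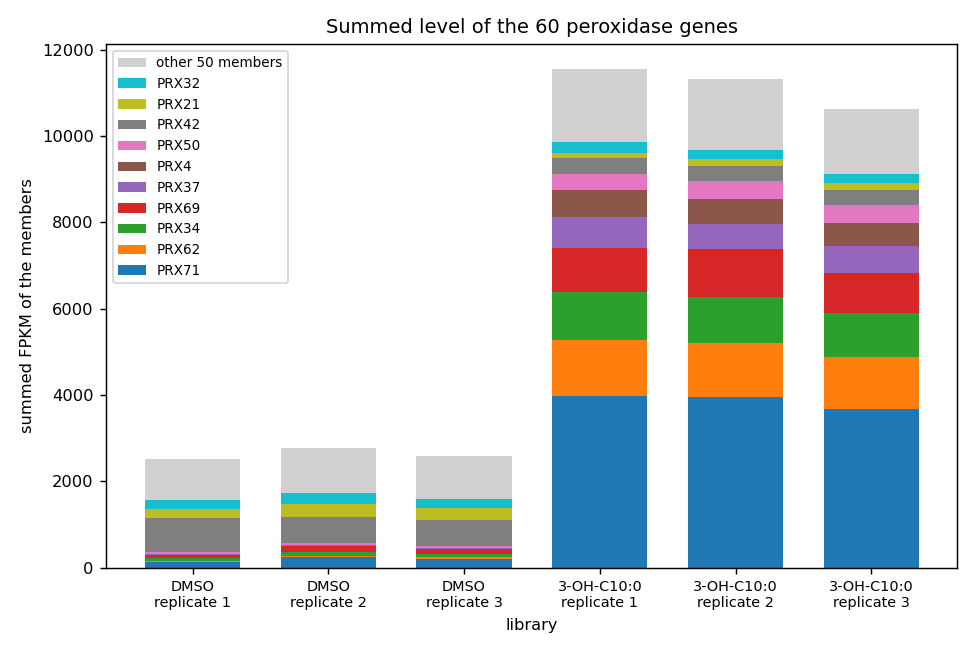
Summed FPKM of the 60 peroxidase genes in each library, stacked by gene, with the other 50 members in grey. The DMSO bars reach 2528 to 2781 FPKM, with PRX42 as the largest block, and the treated bars reach 10634 to 11554 FPKM, with PRX71 as the largest.

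In DMSO the most abundant member was PRX42 (AT4G21960, also PRXR1), with 25.3% ± 5.08 of the family's FPKM, followed by PRX21 with 9.65% ± 1.40 and PRX32 with 8.71% ± 0.385. PRX21 and PRX32 did not differ beyond their spread. In treated seedlings PRX71 alone made up 34.6% ± 0.293, and PRX71, PRX62, PRX34, PRX69, PRX37 and PRX4 together reached 75.4%. The 6 most abundant members of the DMSO libraries held 61.6% there, so a few genes made up most of the sum in both groups. PRX34 (9.54% ± 0.138) and PRX69 (9.12% ± 0.596) were close to each other there.

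Of 9 tested genes tied by earlier work to pathogens, elicitors or stress, 6 rose, 1 fell and 2 did not pass. The share that rose was 66.7%, beside 35.6% of all tested loci. The role groups were not compared by a test, and they were formed with results of these data known. The count of 6 depends on the grouping: PRX62 was placed here, and PRX69, which also rose, under no single role. PRX4 and PRX5 are neighbours on chromosome 1, and PRX4 (AT1G14540, 4974021 to 4975705, minus strand) is a marker gene of pattern-triggered immunity. PRX4 stood at 0.80, 1.05 and 1.14 FPKM in DMSO and at 624, 576 and 555 FPKM in treated libraries. It went from close to silent to the upper ranks of the transcriptome, with a log2 fold change of 9.26 ± 0.162 (adjusted p = 8.7e-11). PRX5 (AT1G14550, 4978922 to 4980466, plus strand) stood at 0.21, 0.10 and 0.35 FPKM in DMSO and at 116, 114 and 160 FPKM after treatment. Its log2 fold change was 9.25 ± 0.277 (adjusted p = 9.9e-09), on 4, 2 and 7 counts in the DMSO libraries.

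PRX71 (AT5G64120), a peroxidase that stiffens cell walls and restrains cell growth after wall damage, became the most abundant member. Its FPKM was 127, 239 and 207 in DMSO and 3981, 3958 and 3668 in treated libraries. By FPKM it ranked between place 416 and 886 among all 28259 loci in DMSO and between place 5 and 7 after treatment (log2 fold change 4.42 ± 0.243, adjusted p = 1.3e-07). PRX62 (AT5G39580), which together with PRX69 supports root hair growth at low temperature, stood at 23.3, 39.9 and 36.2 FPKM in DMSO. It reached 1294, 1248 and 1206 FPKM in treated libraries (5.32 ± 0.215, adjusted p = 1.6e-08). PRX37 (AT4G08770), whose overexpression dwarfs plants and raises phenolics bound to the wall, went from 25.1, 35.2 and 31.2 to 719, 585 and 604 FPKM (4.46 ± 0.165, adjusted p = 3.8e-09).

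PRX33 and PRX34 are the pair that earlier work ties to the apoplastic oxidative burst against microbial elicitors. PRX34 passed the test and PRX33 did not. PRX34 (AT3G49120) rose from 72.5, 85.2 and 74.5 to 1113, 1062 and 1022 FPKM (3.87 ± 0.127, adjusted p = 1.7e-09). PRX33 (AT3G49110) stood at 15.3, 10.2 and 8.97 FPKM in DMSO and at 9.27, 7.75 and 6.24 FPKM after treatment. Its groups overlapped, and the log2 difference of -0.49 ± 0.219 did not pass (adjusted p = 0.0754). Over 13 other settings its adjusted p ran from 0.00372 to 0.228, and it passed as lower in 6 of them. PRX21 (AT2G37130), linked to resistance against a fungal pathogen, fell by 0.77 on the log2 scale, from 204, 297 and 264 to 124, 154 and 144 FPKM (adjusted p = 8.2e-04). PRX53 (AT5G06720) was below 1 FPKM in each library and did not pass (adjusted p = 0.770).

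**Figure D3:**
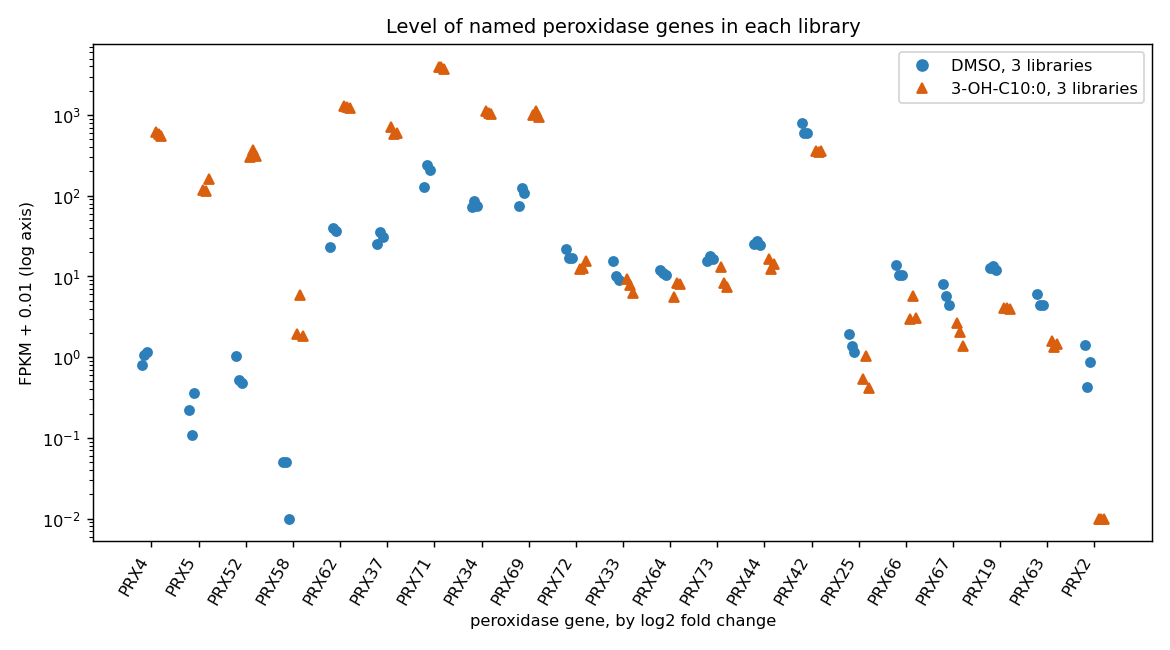
FPKM plus 0.01 on a log axis for 21 peroxidase genes in each of the 3 DMSO and 3 treated libraries, ordered by log2 fold change; a point at 0.01 is listed at 0. The treated libraries lie above all DMSO libraries from PRX4 to PRX69 and below them for the genes at the right end, while those of PRX33 overlap.

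Genes of lignin, suberin or the Casparian strip went in both directions: of 11 tested, 3 rose, 7 fell and PRX17 did not pass (adjusted p = 0.213). The shares that rose and fell were 27.3% and 63.6%, beside 35.6% and 35.8% of all tested loci. One of the 7 is PRX2, whose reads cannot be told apart from those of PRX1, so 6 fell without it. PRX52 (AT5G05340), a peroxidase of lignin synthesis in the stem, rose from 1.01, 0.51 and 0.47 FPKM to 302, 371 and 310 FPKM. Its log2 fold change of 9.04 ± 0.209 (adjusted p = 2.5e-10) was the third largest of the 60 genes. PRX47 (AT4G33420), expressed in forming vessels, rose from 21.4, 25.8 and 24.1 to 57.8, 49.8 and 49.6 FPKM. PRX39 (AT4G11290), which takes part in lignification of the Casparian strip, rose from 20.4, 30.3 and 29.2 to 86.3, 50.8 and 43.7 FPKM, with treated replicate 1 the highest.

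The other lignin genes stood lower after treatment. PRX66 (AT5G51890), a gene of lignifying vessels, fell from 13.9, 10.4 and 10.5 to 2.96, 5.76 and 3.02 FPKM (log2 fold change -1.50 ± 0.246, adjusted p = 6.1e-04). PRX25 (AT2G41480), needed for full stem lignin, fell from 1.93, 1.35 and 1.16 to 0.53, 1.01 and 0.40 FPKM (-1.15 ± 0.365, adjusted p = 0.0153). That call was lost without DMSO replicate 1, treated replicate 1 or treated replicate 3 (adjusted p of 0.0616, 0.0552 and 0.0607). PRX64 (AT5G42180), the peroxidase of the Casparian strip, stood at 12.2, 10.9 and 10.6 FPKM in DMSO and 5.63, 8.38 and 8.10 FPKM after treatment (-0.52 ± 0.146, adjusted p = 0.00838). PRX72 (AT5G66390), a peroxidase of lignification, went from 21.9, 16.7 and 17.1 to 12.2, 12.9 and 15.4 FPKM (-0.37 ± 0.129, adjusted p = 0.0239). Its call was lost without DMSO replicate 1, treated replicate 1 or treated replicate 2 (0.0939, 0.0963 and 0.0853). PRX3, a cold-inducible member also called RCI3, and PRX9, which also acts in anther development, fell by 0.63 and 0.55. In these 6 genes the treated libraries lay below all DMSO libraries, as they did in 38.2% of all tested loci.

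The 5 genes grouped here under root hairs or root growth fell, each by less than 2-fold, beside 35.8% of all tested loci that fell. In each of them the treated libraries lay below the DMSO libraries, as in 38.2% of all tested loci. The count of 5 depends on the grouping: PRX62 and PRX69, which act in root hairs in the cold, were placed in other groups and rose. PRX44 (AT4G26010), a peroxidase of root hair walls, went from 25.4, 27.6 and 24.4 to 16.7, 12.3 and 14.2 FPKM (-0.76 ± 0.119, adjusted p = 1.9e-04). PRX73 (AT5G67400), known for the same role, went from 15.3, 17.7 and 16.5 to 13.2, 8.36 and 7.41 FPKM (-0.69 ± 0.206, adjusted p = 0.0152, and 0.0546 without treated replicate 2). PRX1, PRX57 and the root hair gene PRX60 fell by 0.62, 0.42 and 0.69. PRX60 did not pass without DMSO replicate 3, treated replicate 2 or treated replicate 3 (adjusted p of 0.179, 0.0559 and 0.117). Whole seedlings were sampled, and fewer cells of a type cannot be told apart from less RNA per cell. On a list of 17 root tissue markers, 7 of 16 tested fell (43.8%, beside 35.8% of all tested loci) and 2 rose, with a median log2 fold change of -0.54. The 4 with the smallest p were NRT1.5 (-1.44), WER (-1.54), PYK10 (-0.88) and PIN2 (-0.38). The FPKM of all 17 root tissue markers summed to 1016 to 1082 in DMSO and 506 to 653 in treated libraries, and none of the 17 was at 0 in all libraries. Of 18 other root hair genes 17 were tested, of which 8 fell (47.1%) and 1 rose (median -0.34). The shares that fell on both lists are near that of all loci. The shares that rose, 12.5% of the root tissue markers and 5.88% of the root hair genes, were below the 35.6% of all tested loci. Both medians lay below the -0.04 of all tested loci. The 4 root hair genes with the smallest p fell. They were the wall enzyme gene XTH26 (-2.41), the wall protein genes PRP3 (-1.08) and PRP1 (-0.84), and the actin regulator ADF8 (-0.86). What part the root markers have in the lower peroxidase values was not tested.

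For 30 tested members no single role was assigned, and here 7 rose, 9 fell and 14 did not pass. The shares that rose and fell were 23.3% and 30.0%, below the 35.6% and 35.8% of all tested loci. PRX69 (AT5G64100) was the most abundant of those that rose, from 73.8, 126 and 108 to 1006, 1109 and 940 FPKM (3.39 ± 0.200, adjusted p = 3.1e-07). PRX50 (AT4G37520) went from 41.3, 55.1 and 47.4 to 384, 414 and 412 FPKM, and PRX49 (AT4G36430) from 6.15, 10.2 and 8.26 to 57.1, 111 and 66.3 FPKM. PRX70 (AT5G64110) and PRX51 (AT4G37530) rose by 2.56 and 1.91 on the log2 scale. PRX58 (AT5G19880) had 2 DMSO counts in all against 242 treated counts. The ratio was 120, and its 95% counting interval ran from 32.8 to 995. Its treated libraries stood at 1.93, 5.86 and 1.80 FPKM, so it stayed a rare transcript. PRX59 (AT5G19890) rose from 16.3, 69.5 and 36.3 to 199, 155 and 120 FPKM (2.03 ± 0.587, adjusted p = 0.0285). Its DMSO libraries spread widely, and the call was lost on leaving out any 1 of DMSO replicate 3 or the treated libraries (adjusted p between 0.0592 and 0.0839).

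The lowest fold changes of this group, and of the 60 genes apart from PRX2, were in PRX63, PRX19 and PRX67. PRX63 (AT5G40150) went from 6.01, 4.47 and 4.48 to 1.57, 1.33 and 1.46 FPKM (-1.68 ± 0.176, adjusted p = 8.5e-06). PRX19 (AT2G34060) went from 12.83, 13.39 and 12.03 to 4.05, 4.02 and 3.91 FPKM (-1.59 ± 0.113, adjusted p = 4.4e-07). PRX67 (AT5G58390) went from 8.16, 5.74 and 4.37 to 2.61, 2.04 and 1.36 FPKM (-1.53 ± 0.286, adjusted p = 0.00101). Among abundant members PRX42, the leading gene of the DMSO libraries, fell from 787, 601 and 601 to 363, 349 and 353 FPKM (-0.82 ± 0.125, adjusted p = 1.6e-04). PRX12 (AT1G71695) fell from 151, 152 and 138 to 74.4, 62.5 and 68.6 FPKM and PRX31 (AT3G28200) by 0.98 on the log2 scale. The abundant PRX32 (213, 254 and 221 FPKM in DMSO, 255, 211 and 223 FPKM in treated libraries), PRX45, PRX22 and PRX27 did not pass, with log2 differences of 0.08, 0.22, 0.03 and 0.26.

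Many of these genes lie side by side on the chromosomes. Among the members 12 pairs were neighbours with at most 2 other protein-coding genes between them, and they involved 22 of the 60 genes. In 10 pairs both genes were tested, and 9 of these had the same call: 5 with both higher, 2 with both lower and 2 in which neither passed. Both pairs of lower genes include PRX2. PRX33 and PRX34 made up the tenth. For each pair the log2 ratio of FPKM + 0.1 was taken within each library, and in 7 of 10 pairs the ratios of treated and DMSO libraries did not overlap. A two-sided exact permutation test gives 0.1 for each of these, the smallest p that 3 against 3 libraries allow, and 0.143 after Benjamini-Hochberg adjustment over the 10 pairs. The 7 include PRX1/PRX2 and PRX2/PRX3, whose ratios rest on PRX2 estimates that cannot be told apart from PRX1. With a pseudocount of 1 the gap of PRX1 to PRX2 went from 2.47 to 0.19 (exact permutation p = 0.5). Other gene pairs were not counted in this way, so neither the 9 nor the 7 has a background share beside it.

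**Figure D4:**
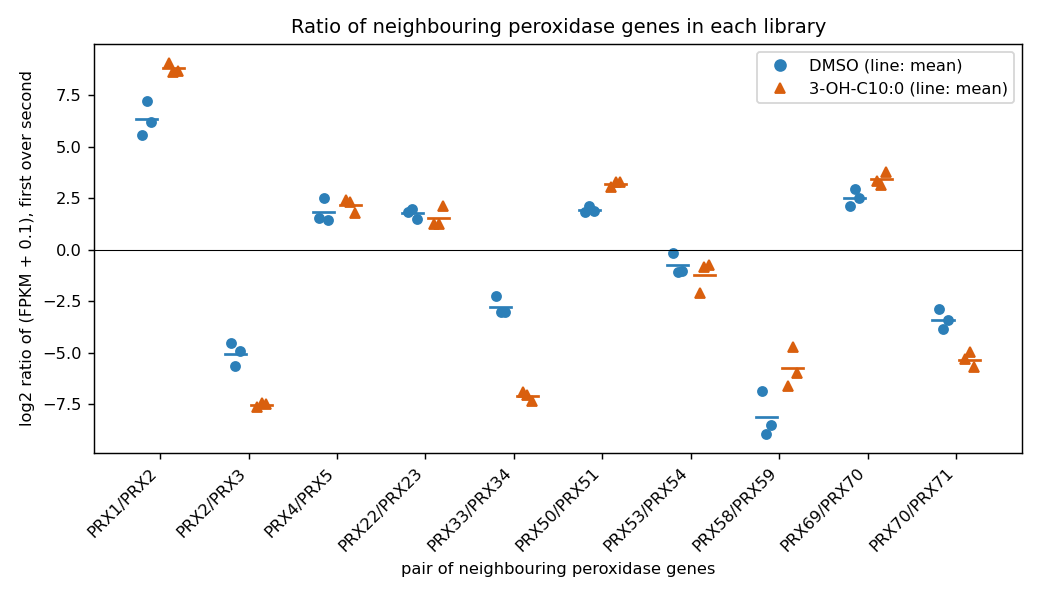
Log2 ratio of FPKM + 0.1, first gene over second, in each library for the 10 neighbouring pairs with both genes tested; points are libraries and lines group means. The ratio of PRX33 to PRX34 goes from -2.77 in DMSO to -7.10 in treated libraries. That of PRX4 to PRX5 overlaps between the groups at this pseudocount.

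The ratio of PRX33 to PRX34 was -2.23, -3.05 and -3.04 in DMSO and -6.89, -7.08 and -7.33 in treated libraries. The gap of -4.33 was the widest of the 10 pairs. PRX50 moved above its neighbour PRX51 by a further 1.26 on the log2 scale, PRX69 above PRX70 by 0.91 and PRX71 above PRX70 by 1.95. By contrast the ratio of PRX4 to PRX5 was 1.54, 2.52 and 1.46 in DMSO and 2.43, 2.34 and 1.80 after treatment. With the pseudocount of 0.1 these overlapped (exact permutation p = 0.4). PRX5 stood at only 0.21, 0.10 and 0.35 FPKM in DMSO, close to that pseudocount. The overlap depends on the pseudocount, so it does not show that PRX4 and PRX5 changed by the same factor. The ratio of PRX58 to PRX59 rose by 2.35 with a pseudocount of 0.1 and fell by 0.22 with a pseudocount of 1, so its direction rests on that choice.

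The coding sequences of neighbours were alike to different degrees, which bears on how reads could be divided between them. PRX33 and PRX34 were 90.4% identical over their aligned coding sequences, PRX50 and PRX51 92.4%, PRX4 and PRX5 71.8% and PRX70 and PRX71 60.4%. PRX33 (chromosome 3, 18200587 to 18203265, plus strand) and PRX34 (chromosome 3, 18207651 to 18210333, plus strand) shared no run longer than 111 bases. A stretch of 90 aligned coding bases near the start codon, from coding base 24 of PRX33 and 21 of PRX34, shows how the genes can be told apart, with the 15 differing bases in capitals.
PRX33: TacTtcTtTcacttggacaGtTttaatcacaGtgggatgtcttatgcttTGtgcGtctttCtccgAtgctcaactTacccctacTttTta
PRX34: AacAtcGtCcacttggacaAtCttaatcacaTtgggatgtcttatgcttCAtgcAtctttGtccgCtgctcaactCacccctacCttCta

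PRX1 and PRX2 were a case apart. PRX1 (AT1G05240, chromosome 1, 1520278 to 1523023, plus strand) and PRX2 (AT1G05250, chromosome 1, 1525601 to 1527360, minus strand) had the same 978 coding bases without a difference. The whole annotated PRX2 transcript of 1492 bases is also one unbroken run within the longer PRX1 transcript of 2478 bases. Their coding sequence begins as follows, and both genes hold these 90 bases.
PRX1 and PRX2: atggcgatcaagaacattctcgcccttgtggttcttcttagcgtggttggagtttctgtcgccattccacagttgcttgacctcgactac
The deposited estimates for PRX2 were 37.29, 12.14 and 24.15 counts in DMSO and 0 in each treated library, at least 24.9-fold lower if the treated group is set to 3 counts in all. In the same DMSO libraries PRX1 had 1771.71, 2090.86 and 1871.85 counts, and the sum of the pair was a whole number in each library. PRX2 thus held 2.06%, 0.577% and 1.27% of the pair's counts in DMSO and 0% after treatment. Summed, the pair had 92.2 ± 6.18 CPM under DMSO. After treatment it had 59.4 ± 10.8 CPM (SD, n = 3), a log2 fold change of -0.63 ± 0.121 (adjusted p = 8.4e-04, edgeR on summed counts, chosen after seeing the data). The fitted PRX2 value of -7.63 is therefore no measure of that gene alone.

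Non-whole estimates also marked PRX33 and PRX34, PRX22 and PRX23, PRX50 and PRX51, and PRX37 with its neighbour PRX38, a gene outside the 60. In each of these pairs the sums were whole in all 6 libraries, so some reads had been divided between the 2 genes. In the treated libraries PRX33 had 258.04, 191.03 and 231.06 counts beside 29973.96, 25342.97 and 36633.94 for PRX34. PRX37 and PRX38, 93.8% identical in coding sequence, rose together by 4.35 when summed, against 4.46 for PRX37 alone. PRX33 and PRX34 summed rose by 3.67, although PRX33 alone stood at -0.49, and PRX22 and PRX23 did not pass alone or summed (0.09, adjusted p = 0.443). The level of each gene within such a pair is less certain than that of the pair.

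Promoter sequence was looked at for members that moved together. In the 250 bases before the annotated start, the W-box core TTGAC, which WRKY transcription factors bind, was searched on both strands. It occurred in 6 of the 16 members that rose (37.5%), 9 of the 22 that fell (40.9%) and 44.9% of 27437 promoters of protein-coding genes. The share among members that rose was thus near that of all promoters. The longer forms TTGACC or TTGACT, which contain the core, were in 4 of 16, against 28.4% of all promoters, and the core TGACG bound by TGA factors was in 3 of 16, against 18.6%; TTGACG counts under both cores. The G-box CACGTG was in none of the 60 windows and in 6.49% of all promoters. The upstream sequences of 2 neighbouring pairs and of PRX71 are shown because they hold different numbers of W-box cores beside their different or like changes. They are given 5′ to 3′ on the strand of the gene, with W-box cores of either strand in capitals, from the TAIR10.1 genome. PRX33 (chr3:18200337-18200586, plus) and PRX4 (chr1:4975706-4975955, minus) held none, PRX34 (chr3:18207401-18207650, plus) and PRX5 (chr1:4978672-4978921, plus) held 2 each and PRX71 (chr5:25661008-25661257, minus) held 3.
PRX33: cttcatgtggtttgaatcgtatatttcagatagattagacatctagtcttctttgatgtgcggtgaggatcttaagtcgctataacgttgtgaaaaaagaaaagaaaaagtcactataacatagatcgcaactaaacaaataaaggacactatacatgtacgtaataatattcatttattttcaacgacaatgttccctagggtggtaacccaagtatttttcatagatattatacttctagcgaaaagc
PRX34: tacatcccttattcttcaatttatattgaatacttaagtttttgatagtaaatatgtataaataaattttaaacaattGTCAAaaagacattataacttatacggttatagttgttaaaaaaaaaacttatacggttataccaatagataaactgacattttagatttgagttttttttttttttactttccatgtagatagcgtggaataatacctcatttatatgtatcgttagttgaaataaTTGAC
PRX4: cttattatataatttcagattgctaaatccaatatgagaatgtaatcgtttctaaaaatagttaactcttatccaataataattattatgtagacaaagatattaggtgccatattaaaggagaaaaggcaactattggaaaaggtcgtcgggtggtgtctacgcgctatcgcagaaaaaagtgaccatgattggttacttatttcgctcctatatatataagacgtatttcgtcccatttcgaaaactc
PRX5: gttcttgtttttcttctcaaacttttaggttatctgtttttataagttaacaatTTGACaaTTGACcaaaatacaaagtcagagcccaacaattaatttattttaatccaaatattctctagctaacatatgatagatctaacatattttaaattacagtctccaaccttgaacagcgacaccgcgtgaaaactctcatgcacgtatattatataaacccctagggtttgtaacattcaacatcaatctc
PRX71: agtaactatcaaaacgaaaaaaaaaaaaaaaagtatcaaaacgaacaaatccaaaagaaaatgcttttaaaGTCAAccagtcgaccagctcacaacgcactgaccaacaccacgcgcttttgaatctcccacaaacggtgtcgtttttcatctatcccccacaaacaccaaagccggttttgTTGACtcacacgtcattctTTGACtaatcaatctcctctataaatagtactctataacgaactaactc
In each of these pairs 1 gene held no core and its neighbour held 2, with log2 fold changes of 9.26 and 9.25 for PRX4 and PRX5 and of -0.49 and 3.87 for PRX33 and PRX34. A match is a description of the letters and not a bound site.

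Gene structure and place are given as counts, without a test. Of the 60 members 40 had 4 exons in their first annotated transcript, as did 13 of the 16 that rose and 12 of the 22 that fell. Median coding length was 988.5 bases in those that rose and 987 in those that fell. By chromosome, 7 of the 20 members on chromosome 5 and 6 of the 11 on chromosome 4 rose, and none of the 11 on chromosome 2 did. Of all tested loci 35.6% rose, and no share was taken for each chromosome. These counts include members that could not be tested. Some of the members that rose are neighbours, such as PRX50 with PRX51 and PRX69 to PRX71, so they are not separate cases. Whether the members that rose differ by chromosome was not tested.

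The DMSO libraries were not alike in the genes that rose. DMSO replicate 1 was the lowest of the 3 in 13 of the 16 members that rose, against 45% of all loci that rose. In 11 of them the order was replicate 1, then 3, then 2, against 25.1% of all loci that rose. For PRX71 this meant 158, 257 and 305 CPM in that order and for PRX69 87.9, 129 and 155 CPM. The highest DMSO library exceeded the lowest by a median of 1.53-fold in members that rose and 1.29-fold in members that fell. In the treated libraries of the members that rose the median was 1.19-fold. Without DMSO replicate 1 the same 16 members rose, and the log2 fold change of PRX71 was 4.19. For PRX59 the spread of the DMSO libraries was about as large as its change after treatment.

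**Figure D5:**
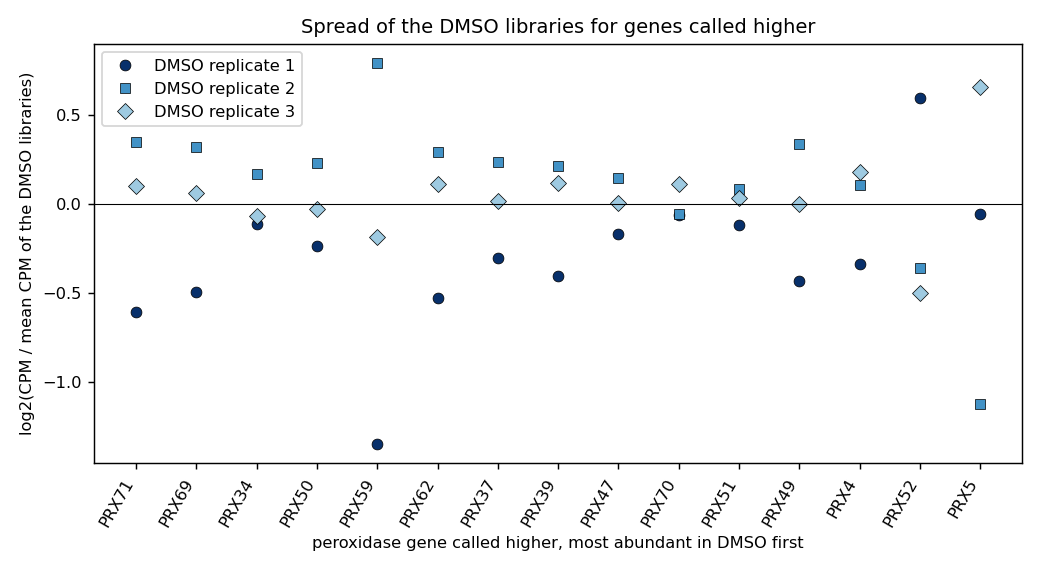
Log2 of CPM over the mean of the 3 DMSO libraries, for 15 of the 16 peroxidase genes that rose, the most abundant in DMSO at the left; PRX58, which had no count in 1 DMSO library, is left out. Replicate 1 lies lowest for most genes, with PRX59 showing the widest spread of the abundant ones, while PRX52 and PRX5, both under 1.5 CPM, do not follow that order.

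The partners of the peroxidases are given as counts, to be read beside the 35.6% of all tested loci that rose and the 35.8% that fell. Among the 10 NADPH oxidase genes, which supply the oxidant, 6 of 8 tested rose and none fell, led by RBOHD, the oxidase of the immune burst, from 9.54 to 76.4 FPKM on average (log2 fold change 3.09 ± 0.142). RBOHC, the oxidase of root hairs, did not pass (-0.12, adjusted p = 0.527). The laccases, copper enzymes that polymerise lignin beside the peroxidases, were mostly lower: of 13 tested 8 fell (61.5%) and 1 rose, with a median log2 fold change of -0.71. Their 4 smallest p-values belonged to LAC17 (-1.29), LAC8 (-0.71), LAC4 (-0.71) and LAC7, the member that rose (0.66). Of 11 genes that build the Casparian strip 5 fell (45.5%, beside 35.8% of all tested loci) and none rose (beside 35.6%). Their median log2 fold change was -0.40, against -0.04 for all tested loci. Those that fell include SGN3 (-0.69), the receptor that surveys the strip, ESB1 (-0.40), CASP2 (-0.74) and CASP1 (-0.54). Of 5 tested regulators of peroxidase or lignin genes 2 rose (40.0%, near the 35.6% of all tested loci) and none fell (beside 35.8%). MYB15, which activates lignin genes in defence, went from 0.253 to 67.2 FPKM (log2 fold change 8.09 ± 0.294), and UPB1, a repressor of peroxidase genes in the root tip, from 28.9 to 52.7 FPKM (0.95 ± 0.172, adjusted p = 0.0011). Of 10 green shoot markers 6 fell and 1 rose. Their FPKM summed to 39633 to 42111 in DMSO and 11123 to 14974 in treated libraries, and what part this has in the FPKM of other genes was not tested. The counts of members that rose or fell were 16 and 22 with DESeq2 size factors and 16 and 23 with total-count scaling.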

How the data were processed

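Whole-seedling RNA was sequenced on a HiSeq2500 in 6 libraries, 3 per group, grouped by the labels. Estimated counts per locus were deposited by the authors without normalisation, and FPKM values were computed by the authors, both per the file headers. Per the submitters' processing notes the tools were RSEM, StringTie 1.3.1, HISAT2 2.2.4, Bowtie2 2.2.8 and fastp 0.18.0, with the TAIR10 build. The sources used here state neither their order nor the use of strand. Of the count values 3.62% were not whole and all were rounded here. Library sums of FPKM ran from 702210 to 743531.

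Loci were filtered with filterByExpr (minimum count 10), TMM-normalised and tested with edgeR 4.0.16 (robust quasi-likelihood F test, two-sided, R 4.3.3), without a replicate block. The test was checked on simulated data. Standard errors come from the log2 fold change and its F statistic. Alternatives used DESeq2 1.42.0 and limma 3.58.1. Between libraries of a group the chi-square per locus was 4.79 to 23.4, above sampling noise. Coordinates, transcripts and sequences are from TAIR10.1, matched by locus code. Coding sequences were aligned globally with Biopython 1.88.

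Members, role groups and lists were chosen with earlier results of these data known. Per-library values are given for the 6 highest and 6 lowest called members, the 5 most abundant, and PRX4, PRX33, PRX34, PRX44, PRX64, PRX71, PRX72 and PRX73. The rule also covered tandem pairs called in opposite directions, of which there were 0. For the partner lists up to 4 genes with the smallest p are named. Other values were named after they were seen.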

Additional observations from a re-analysis of the deposited data

How the results depend on the processing

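Over 13 other settings the number of members that rose lay between 15 and 17 and the number that fell between 17 and 24, against 16 and 22. Leaving out 1 library at a time gave 15 to 17 and 17 to 21, the lowest count being without treated replicate 2. DESeq2's Wald test gave 16 and 22, no filter on low counts 16 and 22, and limma on log2(FPKM + 0.1) or log2(FPKM + 1) 16 and 24. Of 38 called members 30 kept their call in every setting; PRX59 among those that rose and 7 among those that fell lost it in at least 1, and 6 uncalled members gained one. With the replicate number as a block 15 rose and 21 fell. PRX59 (adjusted p = 0.0684), PRX35 (0.0565) and PRX60 (0.0600) then did not pass and PRX33 did (0.00372). Same-numbered libraries deviated from their group means with correlations of 0.0539, -0.00815 and 0.153. Between libraries of different numbers the correlations ran from -0.138 to 0.0622. These values do not settle whether the numbers pair the libraries, and the main fit was left without a block. The neighbour ratio of PRX58 to PRX59 turned from 2.35 to -0.22 with a pseudocount of 1, and the other 9 pairs kept their direction. Direction alone was kept by PRX1 to PRX2, whose gap shrank from 2.47 to 0.19 (exact permutation p = 0.1 and 0.5). Members with few counts in 1 group, such as PRX58 (log2 fold changes of 6.73, and 1.90 on log2(FPKM + 1)), have folds that depend on the prior or pseudocount. Depth limits what can be said of the 5 untested members.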

Other observations

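The other 13 genes that complete the family of 73 numbered peroxidases were not among the 60 and are given here as values. Of these, 7 could be tested, of which 3 rose and 3 fell (42.9% each, beside 35.6% and 35.8% of all tested loci). PRX10 (AT1G49570) was the most abundant, with a mean of 58.1 FPKM in DMSO and 247 FPKM in treated seedlings (log2 fold change 2.16 ± 0.382, adjusted p = 0.0029, edgeR). PRX28 (AT3G03670) went from 0.527 to 8.41 FPKM (4.06) and PRX38 from 3.50 to 10.04 FPKM (1.60). PRX26 (-2.34), PRX65 (-1.31) and PRX29 (-1.16) fell, and PRX61 did not pass (adjusted p = 0.675).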
